A study of Homo sapiens with 30 samples.

Results

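The genes described are 10 that switch MAP kinase signalling off: the MAP kinase phosphatases DUSP1, DUSP4, DUSP5, DUSP6, DUSP8, DUSP10 and DUSP16, and the Sprouty and SPRED proteins SPRY2, SPRY4 and SPRED1. They were taken by gene symbol from a deposited table of raw read counts, and each of the 10 was found once among 63138 genes. RNA had been sequenced from hCMEC/D3, a continuously growing endothelial line derived from human brain microvessels and often used to model the barrier between blood and brain, in 30 libraries that fall into 10 groups of 3. In 5 direct groups the cells spent 12 h in serum-free medium alone (Control) or with 1 stimulus added: the cytokine TNFα (25 ng/mL), the cytokine IL-1β (10 ng/mL), the complement fragment C5a (50 ng/mL) or the catecholamine Epinephrine (200 nM). In 5 vesicle groups, also labelled 12 h, cells of the same line received extracellular vesicles (EV) enriched from the supernatants of cells that had been stimulated in those ways, giving EV-Control, EV-TNFα, EV-IL-1β, EV-C5a and EV-Epinephrine. The amount of vesicles applied is not given in the labels. Nothing in the labels says that the libraries of a group came from separate cultures, so p-values measure the spread between these libraries, which may be technical.

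MAP kinases (ERK, JNK and p38) are active when a threonine and a tyrosine of their activation loop are both phosphorylated. The dual-specificity phosphatases remove both phosphates, and many of their genes are themselves induced by MAP kinase activity, so that transcript levels form part of a feedback loop. Sprouty and SPRED proteins act further upstream, between receptor tyrosine kinases, RAS and RAF, and are likewise induced by growth factor signalling. In endothelium, Sprouty proteins restrain responses to fibroblast and vascular endothelial growth factors, and DUSP1 is known as an early brake on p38 and JNK after inflammatory cytokines.

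Promoter sequences are shown for the 4 genes whose level fell with C5a and whose 250 bases before the RefSeq transcript start hold at least the half-site TGACG of the cAMP response element, the element that the cAMP-regulated factor CREB binds. Letters are 5′ to 3′ on the gene's own strand, and capitals mark TGACG on either strand, overlapping matches included. The DUSP1 window is chr5:172771196-172771445, the DUSP8 window chr11:1572272-1572521, the window of the first of the listed SPRY2 starts chr13:80341127-80341376 and the SPRY4 window chr5:142324248-142324497, all on the minus strand of RefSeq's GRCh38.p14.
DUSP1: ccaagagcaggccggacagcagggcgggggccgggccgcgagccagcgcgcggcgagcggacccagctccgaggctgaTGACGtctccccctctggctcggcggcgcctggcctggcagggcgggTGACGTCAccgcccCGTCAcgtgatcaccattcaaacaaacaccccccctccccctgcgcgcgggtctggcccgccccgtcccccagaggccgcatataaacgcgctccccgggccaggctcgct
DUSP8: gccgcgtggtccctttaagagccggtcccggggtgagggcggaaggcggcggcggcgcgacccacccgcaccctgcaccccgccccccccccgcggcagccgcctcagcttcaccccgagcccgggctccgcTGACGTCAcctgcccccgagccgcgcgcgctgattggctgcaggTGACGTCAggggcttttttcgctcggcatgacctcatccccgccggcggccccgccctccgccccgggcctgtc
SPRY2: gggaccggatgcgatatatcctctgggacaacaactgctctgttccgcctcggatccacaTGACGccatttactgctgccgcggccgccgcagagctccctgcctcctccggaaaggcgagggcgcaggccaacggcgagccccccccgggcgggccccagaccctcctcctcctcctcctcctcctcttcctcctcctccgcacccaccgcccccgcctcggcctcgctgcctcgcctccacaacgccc
SPRY4: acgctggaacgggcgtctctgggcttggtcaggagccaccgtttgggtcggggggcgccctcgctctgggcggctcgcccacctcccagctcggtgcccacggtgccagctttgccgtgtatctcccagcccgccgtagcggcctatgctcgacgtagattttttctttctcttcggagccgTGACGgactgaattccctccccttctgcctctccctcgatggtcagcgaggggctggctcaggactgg

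The full palindrome TGACGTCA occurred 1 time in the DUSP1 window, 125 bases before the start, and 2 times in the DUSP8 window, at 118 and 74 bases. The first SPRY2 window held 1 half-site at 190 bases and the windows of the other listed SPRY2 starts held 0, and SPRY4 1 at 68 bases. Of 35116 promoter windows of the same length, 1.65% hold the palindrome and 21.2% the half-site on either strand. The genes shown were picked for holding a match, so their matches cannot be weighed against these shares. The RefSeq table matched 8 of the 10 genes by symbol (not DUSP4 and DUSP5). Neither the palindrome nor the half-site was found in the windows of DUSP6, DUSP10, DUSP16 and SPRED1, and the AP-1 motif TGANTCA, present in 6.57% of all windows, was found in none of the 8. The genes shown all fell with IL-1β too, and DUSP1, DUSP8 and SPRY2 fell with Epinephrine, so their fall was not particular to C5a. SPRY4 did not fall with Epinephrine (log2 fold change 0.33), and DUSP8 (0.68) and SPRY4 (0.87) rose with TNFα. DUSP5 and DUSP6 also fell with C5a and are not shown. A match is a run of letters and not a tested binding site.

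Library totals lay between 16643961 and 22112326 counts, and the labels give 1 batch for all of them. All 10 genes passed the filter on low counts in each fit. Replicate libraries differed beyond sampling noise, with a chi-square per gene of 2.04 to 12.9 over the 30 pairs, and the Epinephrine pairs (5.07 to 12.9) and EV-Control pairs (4.87 to 10.1) held the highest values. The endothelial label was checked on 10 markers, of which 9 were at 1 CPM (counts scaled to library size) or more in every library, with PECAM1 at 143 to 287 CPM and CDH5 at 174 to 440 CPM, while EMCN stayed at or below 0.665 CPM. The endothelial markers CLDN5 (14.1 to 51.1 CPM), ESAM (10.3 to 24.8) and KDR (4.8 to 16.1) were lower. The other list held 19 markers of mural cells, fibroblasts, astrocytes, neurons, leukocytes and epithelium. Of these, 5 were at 1 CPM or more everywhere (CSPG4, PDGFRB, COL1A1, RGS5 and ACTA2). CSPG4, at 251 to 442 CPM, had a higher median than any endothelial marker, and COL1A1 was at 56.5 to 123 and PDGFRB at 34.4 to 88.8 CPM. Another 10 were below 1 CPM everywhere, with AQP4 at 0 in all 30. The summed endothelial markers ran from 953 to 996 CPM in Control, 1003 to 1052 with TNFα, 709.6 to 735 with IL-1β, 719 to 749.9 with C5a, 765 to 835 with Epinephrine and 609.8 to 737 over the vesicle groups. The summed markers of other types ran from 442 to 504 CPM in Control, 546 to 570.4 with TNFα, 389 to 457 in the other stimulated direct groups, 503.7 to 533 in EV-Control and 619.6 to 641.5 in EV-Epinephrine. Their part in the results below was not tested. In bulk libraries, fewer cells of a type and less RNA per cell cannot be told apart.

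The EV-Control libraries spread widely for 3 of the 10 genes, with DUSP1 at 646.5, 1087 and 1474 CPM, DUSP6 at 81.0, 117 and 197 CPM, and SPRY2 at 54.0, 85.9 and 109.6 CPM in libraries 1, 2 and 3. The immediate early genes FOS (44.2, 105 and 355 CPM) and EGR1 (87.9, 179.6 and 293 CPM) had the same order in these libraries. For DUSP10 the order was the opposite, at 42.4, 32.3 and 28.2 CPM. Among TNFα libraries, library 2 held the highest value for 8 of the 10 genes, which included DUSP6 at 280 CPM against 187 and 194. Without TNFα library 2 the same 8 of the 10 genes passed against Control, and DUSP6 was at 0.68 in place of 0.89 on the log2 scale (adjusted p = 0.00998, range over alternatives 2.67e-05 to 0.0474). For DUSP1, DUSP6 and SPRY2, the range of values on leaving out 1 EV-Control library at a time stands beside each vesicle result.

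Levels in CPM are from counts scaled over all 30 libraries by the trimmed mean of M-values (TMM), and comparisons between genes use CPM per kilobase of exon. Taken over all libraries, DUSP1 had the highest median level at 669.6 CPM per kilobase, followed by DUSP5 at 437 CPM per kilobase. DUSP6 (27.6) and SPRY2 (26.7) came next, then SPRY4 (9.03), DUSP4 (6.08), SPRED1 (4.89), DUSP10 (4.75), DUSP16 (3.94) and DUSP8 (1.29). SPRY4 varied most, with an 11.1-fold ratio between its highest and lowest group mean, ahead of DUSP5 (7.12-fold), DUSP10 (6.01-fold) and DUSP4 (4.86-fold). DUSP6 (3.89-fold), DUSP8 (3.27-fold) and DUSP1 (2.88-fold) were intermediate, and DUSP16 (2.24-fold), SPRY2 (2.21-fold) and SPRED1 (1.47-fold) varied least. TNFα was the highest group for 7 of the 10 genes and C5a the lowest for 5.

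**Figure D1:**
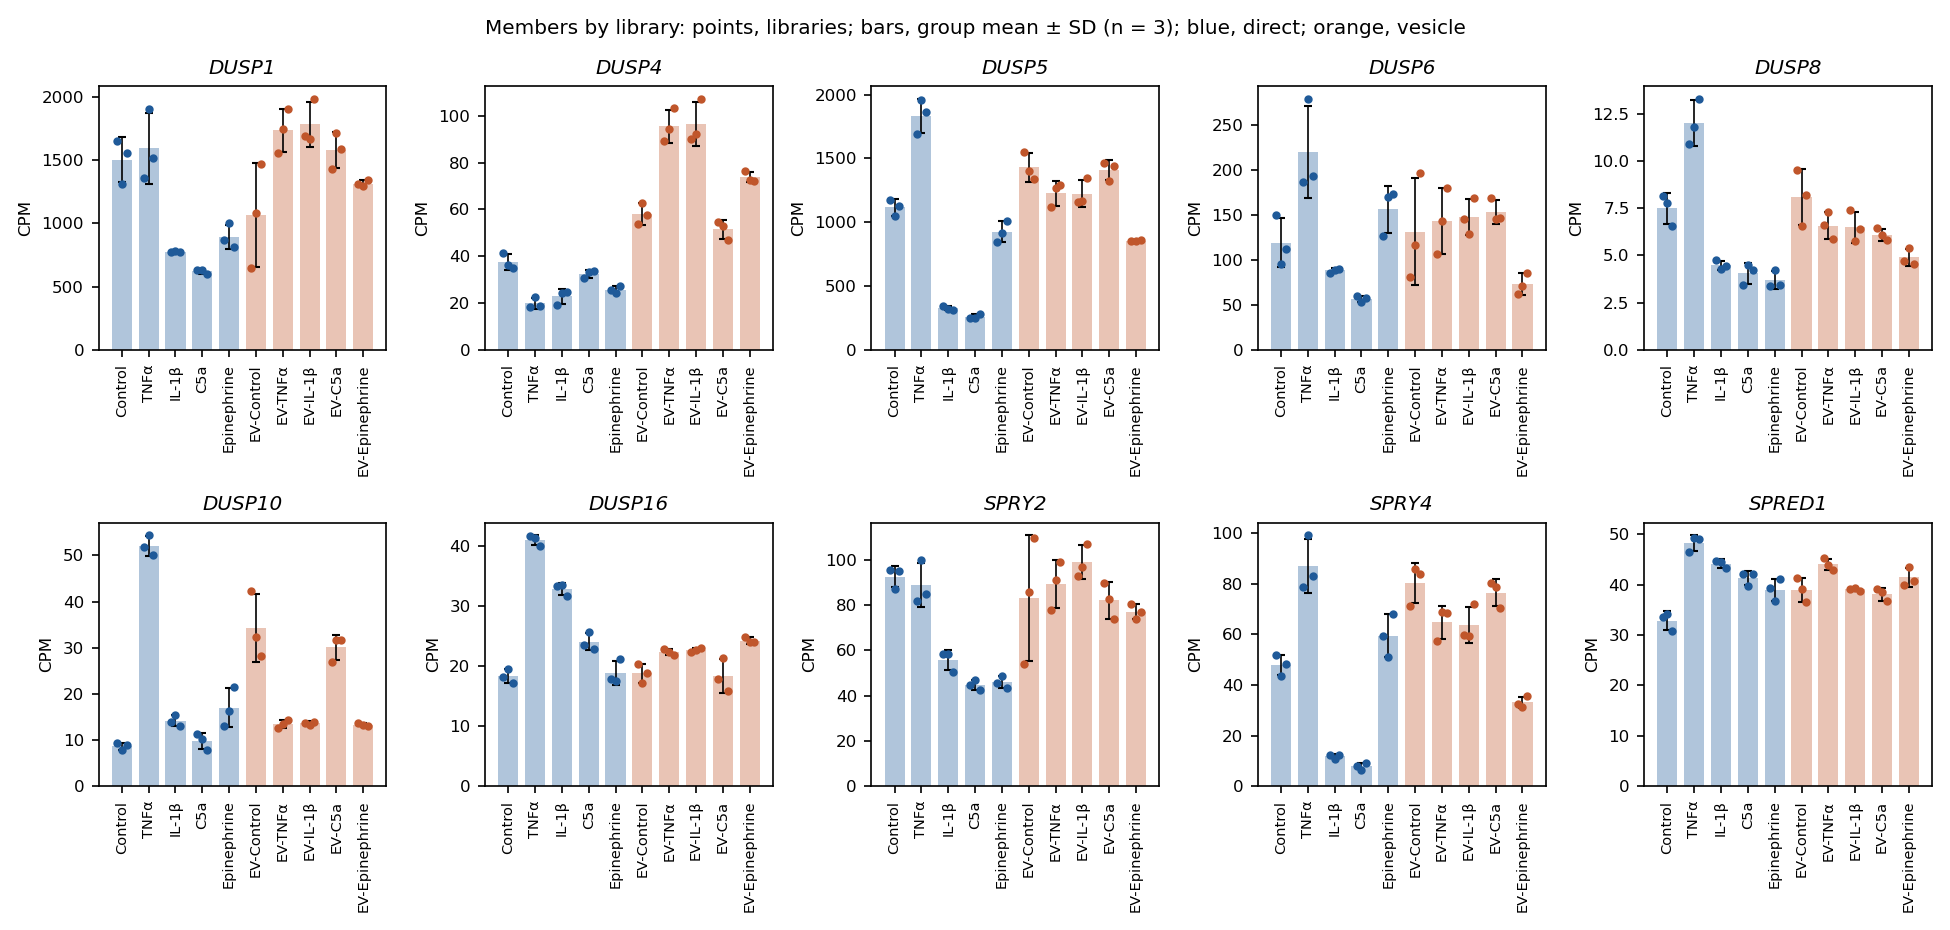
Level of each of the 10 genes in CPM (linear axis from 0) in each library (points) with the group mean (bar) and SD (error bar, n = 3), direct groups in blue and vesicle groups in orange. SPRY4 and DUSP5 were lowest with IL-1β and C5a, DUSP10 was highest with TNFα (52.1 CPM) and next with EV-Control (34.3 CPM), and DUSP4 was higher in every vesicle group than in any direct group.

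DUSP1, DUSP4 and DUSP5 encode the inducible phosphatases of the nucleus. DUSP1 (ENSG00000120129, chromosome 5, 172768090 to 172771195, minus strand, GENCODE 29 on GRCh38) acts mainly on p38 and JNK. Its level was 1652, 1313 and 1557 CPM in Control, 771, 784 and 769.8 CPM with IL-1β, 634.5, 629 and 596 CPM with C5a and 865, 1000 and 815 CPM with Epinephrine. None of these stimulated libraries reached the lowest Control library. DUSP1 fell with IL-1β (1.93-fold, log2 fold change −0.95, SE 0.12, adjusted p = 7.65e-05), with C5a (2.42-fold, adjusted p = 2.88e-05) and with Epinephrine (1.68-fold, adjusted p = 0.00114). With TNFα its libraries (1361, 1908 and 1517 CPM) lay on both sides of Control, and the difference did not pass the test (log2 fold change 0.08, 95% interval −0.19 to 0.35, adjusted p = 0.615).

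In the vesicle groups, DUSP1 was at 1560, 1750 and 1905 CPM with EV-TNFα and 1695, 1670 and 1991 CPM with EV-IL-1β, all above the highest EV-Control library. Against the wide EV-Control group neither passed the test (log2 fold change 0.70, SE 0.23, adjusted p = 0.078, and 0.74, adjusted p = 0.0597). With all libraries kept, both passed with replicate number as a block (adjusted p = 0.0428 and 0.0327), by DESeq2 (0.0179 and 0.0101) and when all 30 libraries were fitted (0.0162 and 0.0105). Without EV-Control library 3 both passed, at 1.01 (adjusted p = 0.00729, range over all alternatives 0.00729 to 0.339) and 1.04 (adjusted p = 0.00568, range 0.00568 to 0.3). On leaving out 1 EV-Control library at a time, DUSP1 ran from 0.44 to 1.01 with EV-TNFα and from 0.48 to 1.04 with EV-IL-1β. EV-C5a (log2 fold change 0.56, 0.30 to 0.87 on leaving out, adjusted p = 0.634) and EV-Epinephrine (0.30, 0.04 to 0.60 on leaving out, adjusted p = 0.436) did not pass. EV-Control itself against Control was at −0.49 (adjusted p = 0.0626). It passed as lower with library totals alone (adjusted p = 0.0449), a mean count of at least 50 (0.0472), the replicate block (0.0448), DESeq2 (0.0309) and without EV-Control library 3 (−0.80, 0.00183), over a range of 0.00183 to 0.421, and was at −0.23 without library 1.

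DUSP4 (ENSG00000120875, chromosome 8, 29333064 to 29350668, minus strand) acts on ERK and JNK in the nucleus, and its level was higher in every vesicle library than in any direct library. Its level was 41.4, 36.0 and 34.7 CPM in Control against 53.5, 62.8 and 57.7 CPM in EV-Control, so no library of one overlapped the other, and it was 1.55-fold higher in EV-Control (adjusted p = 7.32e-07). With the direct stimuli it went down, to 18.3, 22.6 and 18.7 CPM with TNFα and 19.2, 24.3 and 24.7 CPM with IL-1β. The fall was 1.88-fold with TNFα (log2 fold change −0.91, SE 0.096, adjusted p = 4.05e-10), 1.64-fold with IL-1β (adjusted p = 7.9e-08) and 1.44-fold with Epinephrine (adjusted p = 3.61e-05). With C5a it was at 0.873 of Control (adjusted p = 0.12), with libraries (30.5 to 33.7 CPM) below all those of Control. The C5a difference passed when only the groups compared were fitted (adjusted p = 0.028, range over alternatives 0.028 to 0.521). With vesicles DUSP4 went up, to 89.2, 94.4 and 103 CPM with EV-TNFα and 89.95, 92.2 and 107 CPM with EV-IL-1β. The rise over EV-Control was 1.64-fold for EV-TNFα (log2 fold change 0.72, SE 0.071, adjusted p = 7.58e-08), 1.66-fold for EV-IL-1β (adjusted p = 5.85e-08) and 1.27-fold for EV-Epinephrine (adjusted p = 0.00107).

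DUSP5 (ENSG00000138166, chromosome 10, 110497838 to 110511544, plus strand) is the nuclear phosphatase that is specific for ERK. It was at 1174, 1045 and 1128 CPM in Control, 1692, 1955 and 1862 CPM with TNFα, 342, 317 and 314 CPM with IL-1β and 248, 245 and 281 CPM with C5a. The 4 groups did not overlap, and TNFα and the other 2 stimuli lay on opposite sides of Control. DUSP5 rose 1.65-fold with TNFα (log2 fold change 0.72, SE 0.07, adjusted p = 8.16e-08) and fell 3.42-fold with IL-1β (−1.78, SE 0.072, adjusted p = 7.22e-13) and 4.3-fold with C5a (−2.10, SE 0.073, adjusted p = 5.87e-13). The difference between IL-1β and TNFα was 5.63-fold (adjusted p = 4.95e-15). Epinephrine gave a smaller fall, 1.2-fold (847, 914 and 1012 CPM, adjusted p = 0.0101), which missed the threshold without Epinephrine library 1 (adjusted p = 0.0721) or library 2 (0.0902), over a range of 2.81e-07 to 0.0902 in all alternatives. EV-Epinephrine, at 855, 848.5 and 858 CPM, was 1.67-fold below EV-Control (1552, 1402 and 1335 CPM, adjusted p = 5.83e-05). EV-TNFα (log2 fold change −0.23, adjusted p = 0.0915), EV-IL-1β (−0.23, adjusted p = 0.0827) and EV-C5a (−0.02, adjusted p = 0.982) did not pass. The EV-TNFα libraries (1116 to 1295 CPM) did not overlap EV-Control. By DESeq2 DUSP5 was called lower with EV-TNFα (adjusted p = 0.0379, range over alternatives 0.0379 to 0.299) and EV-IL-1β (0.0297, range 0.0297 to 0.271). The EV-IL-1β difference also passed without EV-IL-1β library 3 (adjusted p = 0.0327). EV-Control was 1.28-fold above Control (adjusted p = 0.00228).

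DUSP6 (ENSG00000139318, chromosome 12, 89347232 to 89353271, minus strand) is the ERK-specific phosphatase of the cytoplasm and a widely used readout of ERK activity. Its counts are uncertain, since 1875 bases of its exons are shared with the antisense gene AC024909.2 and the sources used here do not say whether strand was used in counting. It was at 149.6, 95.8 and 112 CPM in Control, 187, 280 and 194 CPM with TNFα, 85.8, 89.3 and 89.9 CPM with IL-1β and 59.6, 53.2 and 57.0 CPM with C5a. TNFα raised it 1.85-fold (log2 fold change 0.89, SE 0.19, adjusted p = 0.00259), and C5a lowered it 2.09-fold (−1.07, SE 0.21, adjusted p = 0.00338). IL-1β (−0.42, adjusted p = 0.108) and Epinephrine (0.40, adjusted p = 0.169) did not pass. EV-TNFα (log2 fold change 0.12, adjusted p = 0.865), EV-IL-1β (0.16, adjusted p = 0.795), EV-C5a (0.22, adjusted p = 0.928) and EV-Control against Control (0.15, adjusted p = 0.749) did not pass. Without 1 EV-Control library at a time DUSP6 ran from −0.13 to 0.54, −0.09 to 0.58, −0.03 to 0.64 and −0.27 to 0.41 in these comparisons, so its sign turned in each. Among the vesicle groups EV-Epinephrine had the lowest DUSP6 level, 61.8, 71.4 and 85.9 CPM, but its highest library overlapped the lowest EV-Control library. The difference was −0.86 on the log2 scale (SE 0.31, adjusted p = 0.0813) and −1.11 without EV-Control library 1 (adjusted p = 0.0228, range over alternatives 0.0228 to 0.289). It was at −0.44 without EV-Control library 3, and with all libraries kept it passed by DESeq2 (adjusted p = 0.0264) and when all 30 libraries were fitted (0.0271).

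DUSP8, DUSP10 and DUSP16 act on JNK and p38 rather than ERK. DUSP10 (ENSG00000143507, chromosome 1, 221701424 to 221742176, minus strand) showed the largest change with TNFα of the 10 genes. It was at 9.26, 7.80 and 8.95 CPM in Control and 51.8, 54.4 and 50.2 CPM with TNFα, a 6.01-fold rise (log2 fold change 2.59, SE 0.14, adjusted p = 2.56e-14). IL-1β (14.0, 15.4 and 12.99 CPM) raised it 1.64-fold (adjusted p = 0.000352) and Epinephrine (13.1, 16.3 and 21.6 CPM) 1.98-fold (adjusted p = 1.53e-05), whereas with C5a the libraries overlapped Control (log2 fold change 0.18, adjusted p = 0.476). Set against EV-Control, EV-TNFα, EV-IL-1β and EV-Epinephrine ran the other way. EV-Control stood at 42.4, 32.3 and 28.2 CPM, 3.94-fold above Control (adjusted p = 2.42e-11), and EV-C5a at 27.0, 31.6 and 31.8 CPM was not separated from it (log2 fold change −0.18, adjusted p = 0.687). EV-TNFα (12.5, 13.5 and 14.2 CPM), EV-IL-1β (13.7, 13.2 and 14.0 CPM) and EV-Epinephrine (13.7, 13.3 and 12.9 CPM) lay close together and far below. They were 2.56-fold (adjusted p = 1.02e-12), 2.51-fold (2.22e-12) and 2.56-fold (1.11e-12) lower than EV-Control. All libraries of these groups were still above the highest Control library (9.26 CPM).

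DUSP16 (ENSG00000111266, chromosome 12, 12474210 to 12562383, minus strand) was raised by 3 of the 4 direct stimuli, in graded steps. From 18.2, 19.5 and 17.2 CPM in Control it reached 41.6, 41.2 and 40.0 CPM with TNFα, 33.3, 33.5 and 31.6 CPM with IL-1β and 23.5, 25.7 and 22.9 CPM with C5a, with no overlap between these groups. The rises were 2.24-fold (log2 fold change 1.16, SE 0.082, adjusted p = 1.45e-14), 1.81-fold (adjusted p = 1.15e-10) and 1.32-fold (adjusted p = 0.000467). Epinephrine left it at 0.06 on the log2 scale (adjusted p = 0.706). EV-Epinephrine raised it 1.29-fold (adjusted p = 0.00168) and EV-IL-1β 1.21-fold (adjusted p = 0.0337). EV-TNFα was close to EV-IL-1β at 1.19-fold but did not pass (adjusted p = 0.0568), and EV-C5a was at −0.04 on the log2 scale (0.969). The EV-TNFα difference passed with library totals alone (0.0413), a mean count of at least 50 (0.0453) and without EV-Control library 1 (0.0331). The EV-IL-1β call was lost without EV-Control library 2 (adjusted p = 0.199) or 3 (0.0532) and without any one of the EV-IL-1β libraries (0.0655, 0.0825 and 0.0956), and over all alternatives the adjusted p ran from 0.0197 to 0.199. That call was also lost by DESeq2 (adjusted p = 0.064) and when only the groups compared were fitted (0.0521).

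DUSP8 (ENSG00000184545, chromosome 11, 1554044 to 1571920, minus strand) was the lowest of the 10 genes, with 64 to 231 counts per library. It rose 1.6-fold with TNFα, from 8.15, 7.80 and 6.58 CPM to 10.9, 11.8 and 13.3 CPM (log2 fold change 0.68, SE 0.14, adjusted p = 0.000108). It fell with the other direct stimuli, by 1.67-fold with IL-1β (adjusted p = 0.00017), 1.85-fold with C5a (adjusted p = 5.76e-05) and 2.03-fold with Epinephrine (3.36, 4.24 and 3.44 CPM, adjusted p = 6.36e-06). Among vesicle groups only the EV-Epinephrine libraries (4.73, 5.42 and 4.55 CPM) differed from EV-Control (9.54, 6.56 and 8.21 CPM) past the threshold, 1.65-fold lower (adjusted p = 0.000392). EV-C5a was at −0.40 (adjusted p = 0.508), EV-TNFα at −0.29 (0.207) and EV-IL-1β at −0.32 (0.165).

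SPRY4, SPRY2 and SPRED1 act upstream of RAF. SPRY4 (ENSG00000187678, chromosome 5, 142310427 to 142326455, minus strand), an inhibitor of ERK activation by growth factor receptors, had the widest range of the 10. It was at 51.8, 43.6 and 48.2 CPM in Control, 78.9, 99.4 and 83.3 CPM with TNFα, 12.2, 10.9 and 12.5 CPM with IL-1β and 8.12, 6.51 and 8.94 CPM with C5a. TNFα thus lay above Control and the other 2 far below it, with no overlap. The rise was 1.82-fold with TNFα (log2 fold change 0.87, SE 0.1, adjusted p = 5.53e-07), and the falls were 4.02-fold with IL-1β (−2.01, SE 0.12, adjusted p = 5.92e-11) and 6.04-fold with C5a (−2.59, SE 0.13, adjusted p = 2.03e-11). With Epinephrine SPRY4 was at 59.3, 51.1 and 68.1 CPM, which overlapped Control, and the 1.25-fold rise (adjusted p = 0.0268) was lost without Control library 2 (adjusted p = 0.114) or 3 (0.0709) and without Epinephrine library 1 (0.0747) or 3 (0.112). Its adjusted p over all alternatives ran from 5.66e-05 to 0.114. The Epinephrine and C5a groups differed 7.57-fold (adjusted p = 1.49e-12).

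Vesicles of Epinephrine-stimulated cells lowered SPRY4 2.43-fold, to 32.4, 31.4 and 35.7 CPM from 71.4, 85.9 and 84.0 CPM in EV-Control (log2 fold change −1.28, SE 0.1, adjusted p = 1.19e-06). EV-IL-1β lowered it 1.26-fold with overlapping libraries (59.9, 59.3 and 72.1 CPM, adjusted p = 0.0359). That call was lost without EV-Control library 2 (adjusted p = 0.121) or 3 (0.123) and without EV-IL-1β library 1 (0.143) or 2 (0.128), over a range of 6.88e-08 to 0.143. The EV-IL-1β call was also lost when all 30 libraries were fitted (adjusted p = 0.0574). EV-TNFα (57.3, 68.8 and 68.5 CPM) was at −0.31 (adjusted p = 0.0527), which passed with the replicate block (adjusted p = 0.0124), DESeq2 (0.00683), a mean count of at least 50 (0.0441), no filter on low counts (1.1e-06) and without EV-Control library 1 (0.00664), over a range of 1.1e-06 to 0.163. EV-C5a was at −0.07 (adjusted p = 0.928). EV-Control was 1.68-fold above Control (adjusted p = 3.71e-05).

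SPRY2 (ENSG00000136158, chromosome 13, 80335976 to 80340951, minus strand), the broadly expressed Sprouty, fell with 3 of the 4 direct stimuli and not with TNFα. From 95.5, 87.3 and 95.3 CPM in Control it fell to 58.2, 58.6 and 50.4 CPM with IL-1β (1.65-fold, adjusted p = 7.54e-11), to 44.8, 46.9 and 42.7 CPM with C5a (2.06-fold, adjusted p = 1.03e-13) and to 45.5, 48.7 and 43.5 CPM with Epinephrine (2.01-fold, adjusted p = 2.47e-13). The TNFα libraries (81.8, 99.8 and 84.9 CPM) overlapped Control at −0.06 on the log2 scale (adjusted p = 0.478). With library totals in place of TMM that difference was −0.34 (adjusted p = 3.94e-05, range over alternatives 3.94e-05 to 0.982), in a setting that moved the median of all genes to −0.288. No vesicle group differed from EV-Control past the threshold (adjusted p = 0.505 to 0.992), where EV-Control itself spanned 54.0 to 109.6 CPM. On leaving out 1 EV-Control library at a time, SPRY2 ran from −0.13 to 0.35 with EV-TNFα, 0.02 to 0.50 with EV-IL-1β, −0.25 to 0.23 with EV-C5a and −0.34 to 0.14 with EV-Epinephrine, and no value passed.

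SPRED1 (ENSG00000166068, chromosome 15, 38252326 to 38357249, plus strand), which brings the RAS inactivator neurofibromin to the membrane, was raised by all 4 direct stimuli, by small amounts. It was at 33.6, 34.2 and 30.7 CPM in Control, 46.4, 49.2 and 49.1 CPM with TNFα and 44.7, 44.5 and 43.2 CPM with IL-1β. The rises were 1.47-fold with TNFα (adjusted p = 9.63e-09), 1.35-fold with IL-1β (1.68e-06), 1.27-fold with C5a (0.000245) and 1.2-fold with Epinephrine (0.00413). No library of these groups reached down to Control. EV-Control was 1.18-fold above Control (adjusted p = 0.00373), and no vesicle group passed the test against EV-Control, the nearest being EV-TNFα at 1.13-fold (adjusted p = 0.0582).

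In the order of group means, several neighbours were not separated. For DUSP1 the libraries of each neighbouring pair overlapped from EV-IL-1β down to Epinephrine, and Epinephrine, IL-1β and C5a were each apart. For SPRY2 the neighbours overlapped from EV-IL-1β to EV-Epinephrine. For SPRY4 TNFα overlapped EV-Control, and EV-Epinephrine, IL-1β and C5a were each separate at the bottom. For DUSP10 TNFα stood alone at the top, EV-Control and EV-C5a overlapped each other, and Epinephrine, IL-1β, EV-IL-1β, EV-TNFα and EV-Epinephrine formed an overlapping run with means from 13.3 CPM upward.

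**Figure D2:**
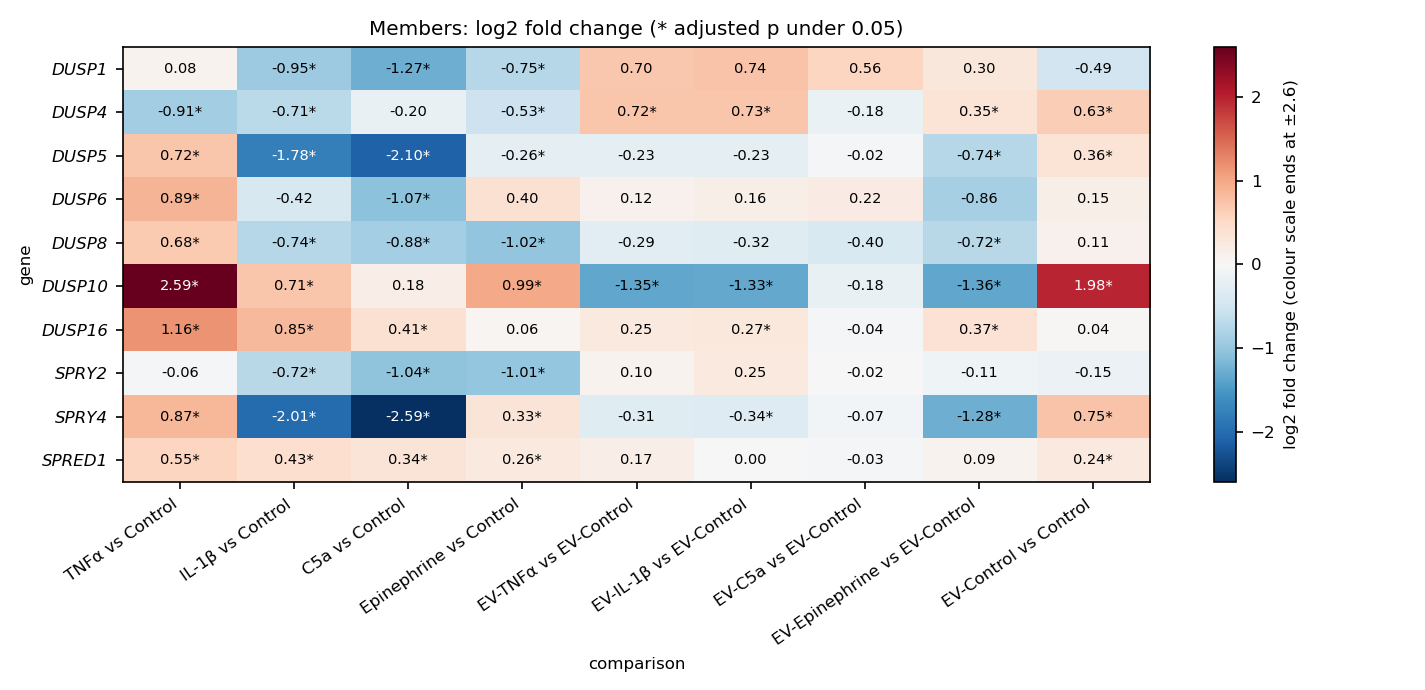
Log2 fold changes of the 10 genes (rows) in the 4 direct comparisons, the 4 vesicle comparisons and EV-Control against Control (columns), with an asterisk where the adjusted p was below 0.05. DUSP5 and SPRY4 were higher with TNFα (0.72 and 0.87) and lower with IL-1β (−1.78 and −2.01) and C5a (−2.10 and −2.59), and DUSP10 was lower in 3 of the 4 vesicle comparisons.

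TNFα against Control changed 8 of the 10 genes, 7 of them upward (DUSP5, DUSP6, DUSP8, DUSP10, DUSP16, SPRY4 and SPRED1) and DUSP4 downward. Over all 15908 genes tested, 27.5% passed the test as higher and 25.3% as lower. The median log2 fold change of the 10 was 0.70, against −0.01 for all genes. TMM factors of the TNFα libraries (0.842 to 0.861) were below those of all other libraries (0.974 to 1.045), so scaling mattered here. With library totals alone the median of all genes moved to −0.288 and that of the 10 to 0.424, 9 of the 10 were called (7 higher, 2 lower), and the share of all calls that were higher went from 52.1% to 22.7%. The 4 direct comparisons share the Control libraries.

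IL-1β against Control changed 9 of the 10 genes. DUSP10, DUSP16 and SPRED1 rose, and DUSP1, DUSP4, DUSP5, DUSP8, SPRY2 and SPRY4 fell. Of all genes 24% were called higher and 22.6% lower, and the median of the 10 was −0.72 against −0.01 for all genes. With library totals alone the same numbers, 3 higher and 6 lower, were called among the 10, while the share of all calls that were higher went from 51.5% to 38.6%.

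IL-1β set directly against TNFα changed 8 of the 10 genes, and all 8 were lower with IL-1β, where 21.4% of all genes were called lower and 19.9% higher. DUSP4 (log2 fold change 0.20, adjusted p = 0.109) and SPRED1 (−0.12, adjusted p = 0.147) did not pass. The median of the 10 was −1.17 against 0.01 for all genes, and SPRY4 (7.32-fold), DUSP5 (5.63-fold), DUSP10 (3.67-fold) and DUSP8 (2.67-fold) differed most. With library totals alone the median of all genes moved to 0.205 and that of the 10 to −0.977, and the share of calls that were higher from 48.1% to 76.1%. In that setting DUSP16 lost its call (−0.12, adjusted p = 0.213, range over alternatives 0.000308 to 0.213) and DUSP4 was called higher (0.39, adjusted p = 0.000984). DUSP4 was also called higher without TNFα library 2 (0.31, adjusted p = 0.0262) or IL-1β library 1 (0.31, adjusted p = 0.0167), over a range of 0.000984 to 0.341.

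C5a against Control changed 8 of the 10 genes at a lower background of 11.8% of all genes higher and 10.8% lower. DUSP1, DUSP5, DUSP6, DUSP8, SPRY2 and SPRY4 fell, and DUSP16 and SPRED1 rose. The median of the 10 was −0.96, against 0.00 for all genes. The falls in DUSP5 (4.3-fold) and SPRY4 (6.04-fold) were the deepest of the 10 genes in any comparison with Control or EV-Control.

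Epinephrine against Control also changed 8 of the 10 genes, 3 higher (DUSP10, SPRY4 and SPRED1) and 5 lower (DUSP1, DUSP4, DUSP5, DUSP8 and SPRY2), with 13.5% of all genes called higher and 11.8% lower. Leaving out single libraries gave 6 to 8 calls. Compared directly, Epinephrine and C5a differed in 7 of the 10. DUSP1 (1.44-fold), DUSP5 (3.58-fold), DUSP6 (2.77-fold), DUSP10 (1.76-fold) and SPRY4 (7.57-fold) were higher with Epinephrine, and DUSP4 (1.26-fold) and DUSP16 (1.27-fold) were lower, where 8.98% and 8.08% of all genes were called higher and lower. Without C5a library 3 the DUSP1 difference (adjusted p = 0.0557, range over alternatives 0.000101 to 0.0557) and the DUSP4 difference (0.0519, range 0.00124 to 0.0519) missed the threshold. The DUSP1 difference also missed it when all 30 libraries were fitted (adjusted p = 0.0549). SPRY2 (log2 fold change 0.03, 95% interval −0.11 to 0.18), DUSP8 (−0.14, interval −0.49 to 0.21) and SPRED1 (−0.08, interval −0.22 to 0.05) did not pass.

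In the vesicle arm the 4 comparisons share the EV-Control libraries. EV-TNFα changed 2 of the 10 genes, DUSP4 upward and DUSP10 downward, where 5.9% of all genes were called higher and 7.42% lower. The count rose to 5 without EV-Control library 1, with DUSP16, SPRY4 and SPRED1 added. EV-IL-1β changed 4 (DUSP4 and DUSP16 higher, DUSP10 and SPRY4 lower) at a background of 6.49% higher and 8.14% lower. That count fell to 2 without EV-Control library 2, EV-IL-1β library 1 or EV-IL-1β library 2. The medians of the 10 were 0.11 and 0.08.

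EV-Epinephrine changed 6 of the 10 genes. DUSP4 and DUSP16 rose, and DUSP5, DUSP8, DUSP10 and SPRY4 fell, where 9.12% of all genes were called higher and 10.5% lower. The median of the 10 was −0.42 against 0.01 for all genes, and with library totals alone the same 2 higher and 4 lower numbers held among the 10 while the share of all calls that were higher went from 46.4% to 60.2%. EV-C5a changed 0 of the 10 by edgeR's quasi-likelihood test, with 3 at an unadjusted p under 0.05 and 0 by DESeq2. In that comparison 0.0126% of all genes (2) were called higher and 0.0377% (6) lower, and with library totals alone 2 and 3.

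Unstimulated vesicles against no vesicles (EV-Control against Control) changed 5 of the 10 genes, and all 5 were higher: DUSP10 (3.94-fold), SPRY4 (1.68-fold), DUSP4 (1.55-fold), DUSP5 (1.28-fold) and SPRED1 (1.18-fold). DUSP1 was lower (−0.49) and passed under the 5 settings named above, DUSP6 was at 0.15, DUSP8 at 0.11 (adjusted p = 0.676), DUSP16 at 0.04 (adjusted p = 0.826) and SPRY2 at −0.15 (adjusted p = 0.556, −0.40 to 0.08 on leaving out 1 EV-Control library). Of all 16691 genes tested, 12.1% were called higher and 9.8% lower, and with library totals alone the share of calls that were higher went from 55.3% to 42.6%. The summed endothelial markers were lower in EV-Control (609.8 to 655 CPM) than in Control (953 to 996 CPM). The vesicles and any other difference in how the 2 arms were handled cannot be told apart in this comparison.

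**Figure D3:**
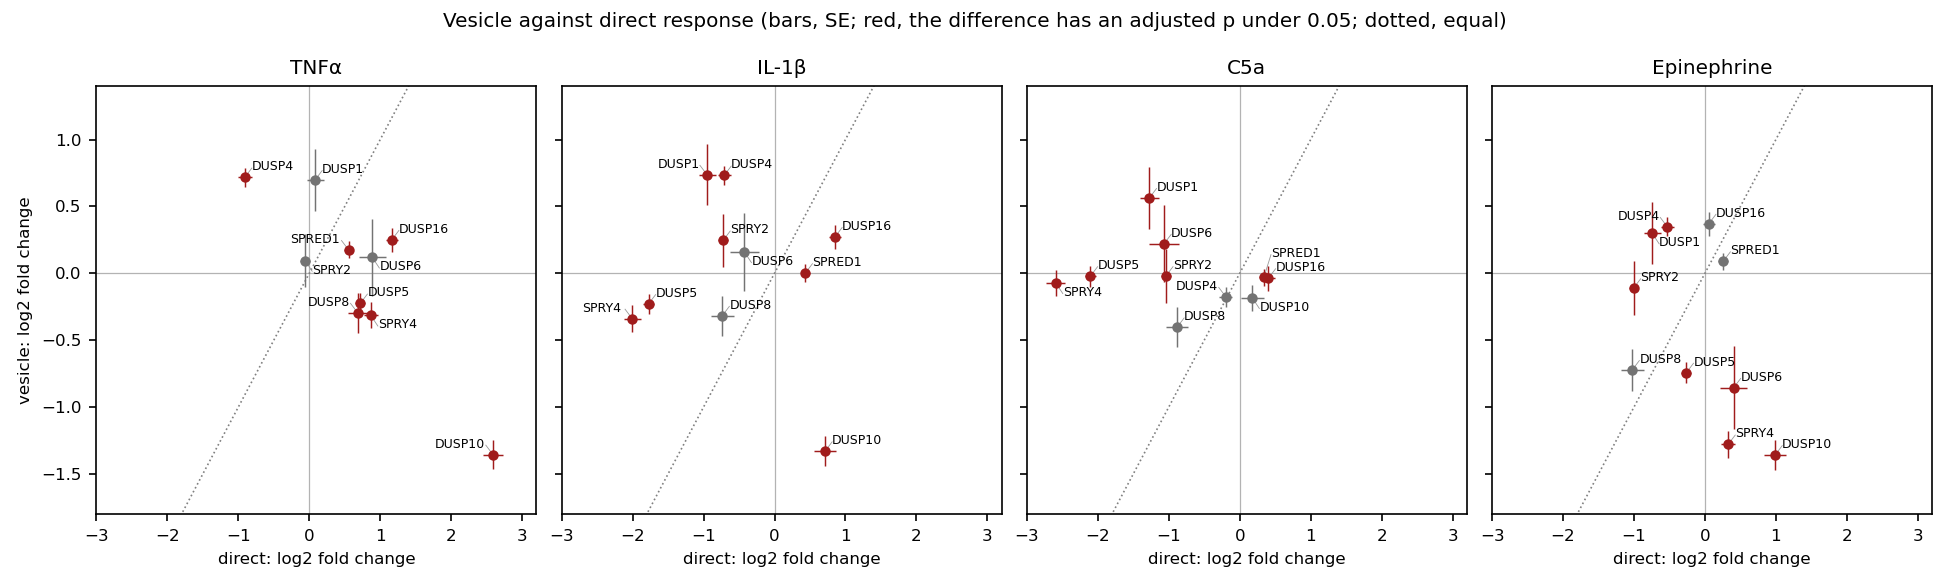
Log2 fold change of each of the 10 genes with vesicles against EV-Control (vertical axis) and with the stimulus itself against Control (horizontal axis), 1 panel for each stimulus, with SE bars, red where the difference between the responses had an adjusted p below 0.05 and a dotted line where they are equal. DUSP10 lies at the lower right with TNFα, IL-1β and Epinephrine, and DUSP4 at the upper left with the same stimuli.

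The vesicle response was compared with the direct response to the same stimulus as an interaction, which is the first log2 fold change minus the second. Of 40 such tests 29 passed. For TNFα 7 of 10 genes differed, DUSP4 upward (1.63) and DUSP5, DUSP8, DUSP10, DUSP16, SPRY4 and SPRED1 downward, led by DUSP10 (−3.94, SE 0.2, adjusted p = 4.35e-16), where 21.3% of all genes were called higher and 23.4% lower. With library totals alone the median of all genes moved from 0.025 to 0.313, the share of calls that were higher from 47.7% to 76.7% and the median of the 10 from −0.838 to −0.55, and SPRED1 lost its call (−0.09, adjusted p = 0.42, range over alternatives 0.00017 to 0.42). For IL-1β 8 of 10 differed, with DUSP1, DUSP4, DUSP5, SPRY2 and SPRY4 higher in the vesicle response by 0.98 to 1.70 and DUSP10, DUSP16 and SPRED1 lower, where 16.9% of all genes were called higher and 18.3% lower. Library totals alone moved the median of all genes for IL-1β from 0.027 to 0.113 and the share of calls that were higher from 48.1% to 62.4%, and left 5 higher and 3 lower among the 10.

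For C5a 7 of 10 genes differed at a background of 5.87% higher and 6.05% lower. DUSP1 (1.85), DUSP5 (2.09), DUSP6 (1.30), SPRY2 (1.03) and SPRY4 (2.53) were higher in the vesicle response, and DUSP16 (−0.43) and SPRED1 (−0.36) lower. Each of these followed from a direct response past the threshold beside a vesicle response that did not pass. The DUSP6 call was lost without Control library 1, C5a library 2, EV-Control library 1 or 2, or EV-C5a library 1 (adjusted p 0.056 to 0.0824), and the DUSP16 call without EV-C5a library 3 (0.0732). Over all alternatives the adjusted p of DUSP6 ran from 0.0013 to 0.0929 and that of DUSP16 from 0.00125 to 0.0732. For Epinephrine 7 of 10 differed, DUSP1 (1.05), DUSP4 (0.89) and SPRY2 (0.90) upward and DUSP5 (−0.47), DUSP6 (−1.25), DUSP10 (−2.34) and SPRY4 (−1.60) downward, with 11.7% of all genes called higher and 12.5% lower. The DUSP6 call was lost without EV-Control library 3 (−0.84, adjusted p = 0.0622, range 0.00212 to 0.0953). When only the groups compared were fitted, DUSP6 (adjusted p = 0.0953), DUSP1 (0.0761, range 0.000119 to 0.0761) and SPRY2 (0.0677, range 0.000131 to 0.0677) lost their Epinephrine calls, and SPRY2 (0.0653, range 5.82e-05 to 0.0653) and DUSP6 (0.0929) their C5a calls. On leaving out 1 EV-Control library at a time, the DUSP1 difference ran from 1.43 to 2.00 for IL-1β, 1.57 to 2.14 for C5a and 0.79 to 1.35 for Epinephrine, and that of SPRY2 from 0.74 to 1.23, 0.78 to 1.27 and 0.67 to 1.15, and each of these values passed. Differences that did not pass with all libraries did so without EV-Control library 3 for DUSP1 with TNFα (0.92, adjusted p = 0.00209, range 0.00209 to 0.226) and DUSP6 with IL-1β (1.01, adjusted p = 0.0179, range 0.0179 to 0.498), and without EV-Control library 1 for DUSP6 with TNFα (−1.02, adjusted p = 0.0156, range 0.0156 to 0.401). The DUSP1 difference with TNFα also passed under other settings, among them DESeq2 (adjusted p = 0.0457), the replicate block (0.0454) and library totals alone (0.00576). The DUSP16 difference with Epinephrine (0.32, adjusted p = 0.0511) also passed under some settings, over a range of 0.0161 to 0.176. Among these were library totals alone (0.0272), a mean count of at least 50 (0.0363) and leaving out EV-Control library 1 (0.0343).

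Other genes of the pathway were read from lists. Of 18 genes known to respond to ERK, 13 rose with TNFα (10 with library totals alone) and none of the called ones fell, at a median log2 fold change of 0.77, where 27.5% of all genes were called higher and 25.3% lower. With IL-1β 5 rose and 4 fell, which is near the 24% and 22.6% of all genes. With C5a 6 rose and 6 fell (11.8% and 10.8% of all genes), and with Epinephrine 9 rose and 1 fell (13.5% and 11.8%). Against EV-Control, EV-TNFα gave 6 higher and 2 lower (5.9% and 7.42% of all genes), EV-IL-1β 6 and 1 (6.49% and 8.14%) and EV-Epinephrine 4 and 6 (9.12% and 10.5%). The AP-1 subunit gene FOSL1 went from 53.9, 51.5 and 53.0 CPM in Control to 224, 242 and 229 CPM with TNFα (log2 fold change 2.13, SE 0.062, adjusted p = 5.43e-26), rose with IL-1β (0.38, adjusted p = 6.6e-06) and Epinephrine (0.53, adjusted p = 5.51e-08), and fell with C5a (−0.47, adjusted p = 1.48e-06) and EV-Epinephrine (−1.05, adjusted p = 1.24e-21). Its mean was 100.2 CPM in EV-Control, 59.3 with EV-TNFα, 68.5 with EV-IL-1β, 95.1 with EV-C5a and 48.2 with EV-Epinephrine. The EV-TNFα (59.0 to 59.8 CPM) and EV-IL-1β (67.6 to 69.3 CPM) libraries thus also lay below those of EV-Control (96.2 to 103 CPM). FOS, the immediate early AP-1 gene, was at 0.11 with TNFα (adjusted p = 0.845) and rose with EV-TNFα (2.04, adjusted p = 0.043) and EV-IL-1β (2.22, adjusted p = 0.0287) against the wide EV-Control group. Neither FOS call held without EV-Control library 2 (adjusted p = 0.141 and 0.102) or on leaving out any single stimulated vesicle library, and the EV-TNFα call was also lost without EV-Control library 1 (0.0749). Over all alternatives the adjusted p of FOS ran from 0.000715 to 0.284 and from 0.000482 to 0.225. EGR1, an immediate early transcription factor gene, rose with C5a (1.24, adjusted p = 0.00018) and Epinephrine (1.04, adjusted p = 0.000568), and by less with TNFα (0.44, adjusted p = 0.038) and IL-1β (0.50, adjusted p = 0.0228). The EGR1 calls with TNFα and IL-1β were lost without Control library 2 (adjusted p = 0.131 and 0.0873), and over all alternatives ran from 0.014 to 0.388 and from 6.43e-05 to 0.129. Mean EGR1 levels were 524.7 CPM with EV-TNFα, 482.8 with EV-IL-1β, 359.6 with EV-Epinephrine, 271.6 with EV-C5a and 186.8 in EV-Control. Every EV-TNFα, EV-IL-1β and EV-Epinephrine library lay above the highest EV-Control library (293 CPM).

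Of the 10 tested genes of growth factor ligands, 7 rose and 3 fell with TNFα, 6 rose and 3 fell with IL-1β (5 and 3 with library totals alone) and 1 rose and 5 fell with C5a, beside shares of all genes of 27.5% and 25.3%, 24% and 22.6%, and 11.8% and 10.8%. HBEGF, which encodes a membrane-anchored ligand of the EGF receptor, was at 69.6, 70.9 and 77.8 CPM in Control and 216, 234 and 216 CPM with TNFα (log2 fold change 1.61, SE 0.064, adjusted p = 1.94e-21). It fell to 34.0, 34.0 and 31.6 CPM with IL-1β (−1.12, adjusted p = 2.8e-15) and 20.2, 21.4 and 25.2 CPM with C5a (−1.70, adjusted p = 6.33e-19). These are the same directions as SPRY4 and DUSP5 in these comparisons. FGF2, another ligand gene, did not share the falls, with a mean of 50.15 CPM in Control, 115.8 with TNFα, 103.8 with IL-1β and 66.1 with C5a. Receptor tyrosine kinase genes numbered 8 higher and 1 lower of 10 with TNFα (5 and 1 with library totals alone), against 27.5% and 25.3% of all genes, and 3 higher and 4 lower with IL-1β, against 24% and 22.6%. MAPK3, which encodes an ERK, fell with IL-1β (−0.29, adjusted p = 6.73e-05), and of 20 genes of the MAP kinase cascade 12 passed with TNFα (5 higher, 7 lower) at a median of −0.02, beside 27.5% and 25.3% of all genes. MAP3K8, a kinase that links TNF and IL-1 receptors to ERK, fell with C5a (−0.71, adjusted p = 2.94e-09) and EV-Epinephrine (−0.996, adjusted p = 0.000557). MAP3K8 rose with TNFα (0.32, adjusted p = 0.000169), a call lost with library totals alone (0.05, adjusted p = 0.554, range 3.05e-06 to 0.554), and with Epinephrine (0.22, adjusted p = 0.0166), a call lost without Control library 2 (0.0569) or Epinephrine library 3 (0.199), over a range of 0.000206 to 0.199.

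Related feedback genes outside the 10 were mixed. SPRY1, another Sprouty, fell with IL-1β (−0.41, adjusted p = 0.000993), C5a (−0.65, adjusted p = 1.2e-05) and Epinephrine (−0.45, adjusted p = 0.00105) and was at −0.17 with TNFα (adjusted p = 0.159), or −0.45 with library totals alone (adjusted p = 0.000252, range over alternatives 0.000252 to 0.433). ERRFI1, an inhibitor of the EGF receptor, rose with TNFα (0.90, adjusted p = 1.05e-16), Epinephrine (0.72, adjusted p = 8.04e-13) and IL-1β (0.19, adjusted p = 0.00392, or 0.0866 with library totals alone, range 2.56e-05 to 0.0866) and fell with C5a (−0.29, adjusted p = 7.63e-05). DUSP2, an inducible nuclear phosphatase, was scarce at 0.052 to 4.27 CPM over all libraries. It was at 1.32, 3.75 and 4.27 CPM in EV-Control against 0.21, 0.32 and 0.17 CPM in Control (log2 fold change 3.70, SE 0.51, adjusted p = 5.27e-08) and was called lower with EV-TNFα, EV-IL-1β and EV-Epinephrine, in the same directions as DUSP10.

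**Figure D4:**
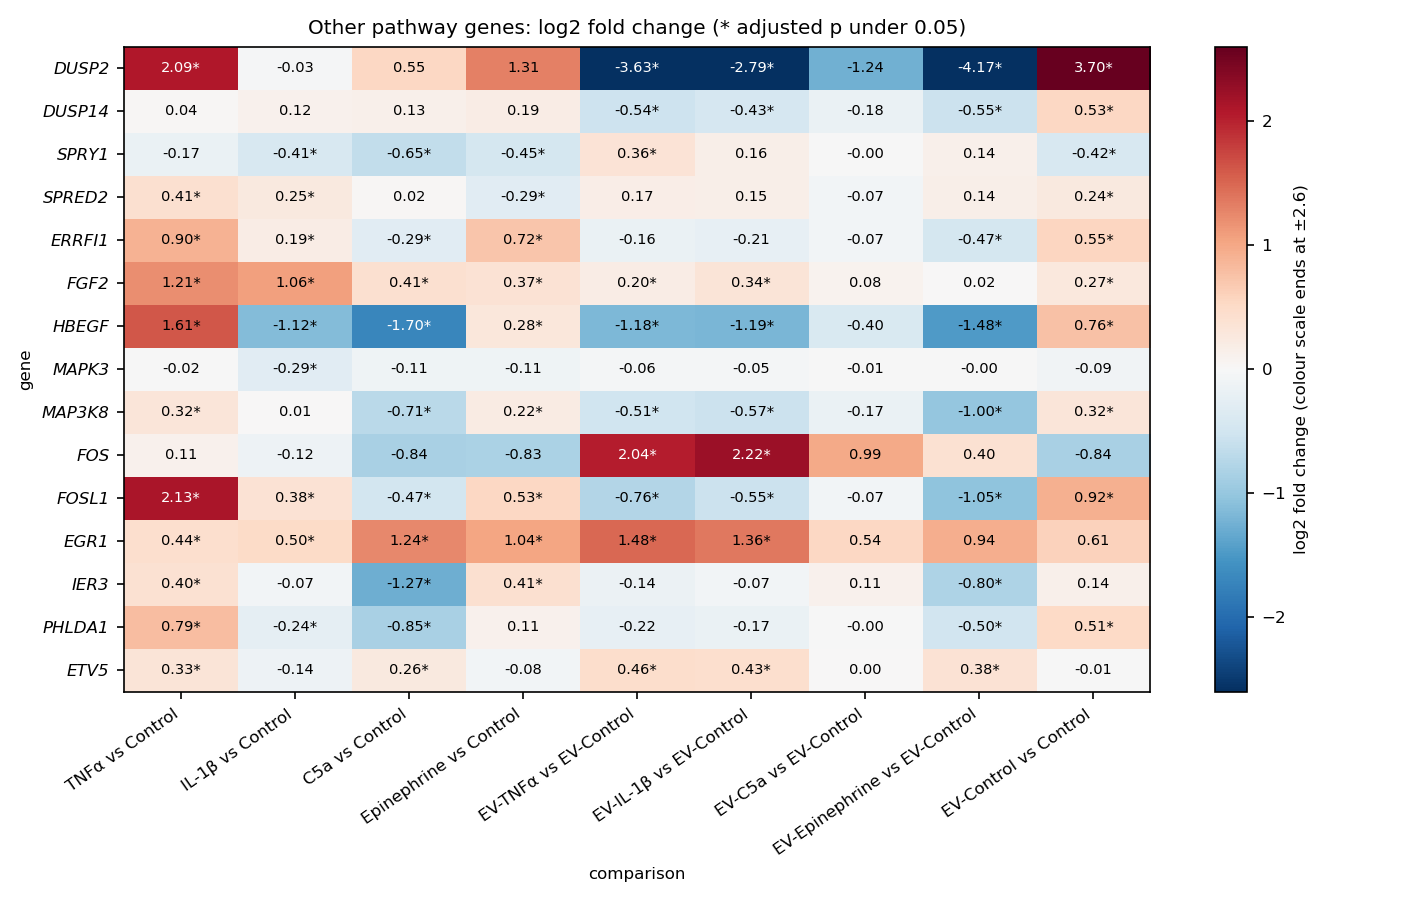
Log2 fold changes of 15 other genes of the pathway (rows) in the same 9 comparisons (columns), with an asterisk where the adjusted p was below 0.05 and colours that end at ±2.6. HBEGF was at 1.61 with TNFα and −1.70 with C5a, and DUSP2 at 3.70 in EV-Control against Control.

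The genes most like each of the 10 were sought over the 10 group means of log2 CPM, centred on each gene's own mean, among 10539 genes with a symbol and a mean of at least 5 CPM. The measure was the root mean square difference, and SPRED1 was left out because its groups spanned less than 1 on the log2 scale. The nearest to DUSP16 was LPAR1 (0.10), followed by AMER1 and USP42 (0.11 each), and the nearest to DUSP5 was CSRNP1 (0.11), followed by ITPRIP (0.20) and ARRDC3 (0.21). DUSP4 was nearest to DIP2C (0.18), PKIB (0.19) and TPD52 (0.21), and DUSP6 to PMAIP1 (0.20), JUNB (0.22) and IER3 (0.22). ZFP36L2 was first both for SPRY2 (0.17, then COL6A1 and TEF) and for DUSP1 (0.23, then CCNL1 and RHOB). DUSP10 was nearest to RNF122 (0.21), with NEDD9 also among its nearest 3, DUSP8 to BBC3 (0.22), then PABIR3 and VGLL4, and SPRY4 to BHLHE40 (0.23), then ARRDC3 and CSRNP1. Within the 10, the closest pairs were DUSP1 with SPRY2 (0.21), DUSP16 with SPRED1 (0.26), DUSP8 with SPRY2 (0.30) and DUSP5 with SPRY4 (0.31), and the farthest was DUSP16 with SPRY4 (1.28). These distances are descriptions over 10 group means that share libraries and scaling.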

How the data were processed

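RNA was measured in 30 hCMEC/D3 libraries. The authors deposited raw counts, not normalized, in 1 table with a line for each Ensembl gene ID. The submitters' processing notes name FastQC, STAR, DESeq2, R 4.4.1 and hg38, and the counting program, annotation and use of strand are not given in the sources used here. Per the labels' protocols, libraries were made with the NEBNext Ultra RNA kit. The table gave 63138 genes, 41189 with a symbol. Lines without a gene ID (4, with 0.00079% to 0.0016% of a library's counts), the lines of 2 genes without counts and repeats of 3 gene IDs with identical counts were left out.

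The tests used edgeR 4.0.16 under R 4.3.3, with filterByExpr, TMM factors, robust quasi-likelihood fits, two-sided tests and Benjamini-Hochberg adjustment over all genes tested, with a threshold of 0.05. Direct comparisons were fitted on the 15 direct libraries (15908 genes), vesicle comparisons on the 15 vesicle libraries (15918 genes), and EV-Control against Control and the interactions on all 30 (16691 genes). This procedure was run on counts simulated for TNFα against Control only, with the same spread setting for all genes. Vesicle comparisons, interactions and groups as uneven as EV-Control were not simulated. CPM were obtained by dividing counts by the TMM-adjusted library size, and levels per kilobase use GENCODE 29 exon lengths. A count of 0 allows up to 3 counts. Intervals cover the spread between libraries, and duplicate reads cannot be told from separate molecules. Group members, pathway lists, markers and the further named genes (DUSP2, DUSP14, SPRY1, SPRED2, ERRFI1, FGF2, HBEGF, MAPK3, MAP3K8, FOS, FOSL1, EGR1, IER3, PHLDA1 and ETV5) were chosen with earlier results of these data known. The rule was to name all 10 genes whether or not they changed, other pathway genes from that set alone, and the 3 nearest genes to each with a log2 range above 1, except that 1 gene of the further set and 1 nearest gene are not reported here. The alternatives were relative log expression factors, library totals alone, no filter on low counts, a mean count of at least 50, replicate number as a block, DESeq2 1.42.0, other sets of libraries in the fit, and leaving out each library.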

Additional observations from a re-analysis of the deposited data

Results flagged for a closer look

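The response to vesicles differed from the response to the stimulus itself in 29 of 40 tests of that difference in the 10 genes (edgeR's quasi-likelihood test, adjusted over all genes). Of all genes, 21.3% were called higher and 23.4% lower for TNFα, 16.9% and 18.3% for IL-1β, 5.87% and 6.05% for C5a, and 11.7% and 12.5% for Epinephrine. Values are vesicle minus direct log2 fold changes. The interactions share their controls, so the EV-Control and Control libraries enter each of them. The gap between these control groups thus enters too, and for DUSP10 it was 1.98 on the log2 scale. In that gap the vesicles and any other difference in handling between the arms cannot be told apart.

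With TNFα the difference was 1.63 for DUSP4 and -0.94 for DUSP5, -0.97 for DUSP8, -3.94 for DUSP10, -0.91 for DUSP16, -1.18 for SPRY4 and -0.38 for SPRED1 (adjusted p from 4.35e-16 to 0.000402). With IL-1β it was 1.70 for DUSP1, 1.45 for DUSP4, 1.56 for DUSP5, 0.98 for SPRY2 and 1.68 for SPRY4, and -2.03 for DUSP10, -0.57 for DUSP16 and -0.42 for SPRED1 (1.15e-11 to 0.0014).

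With C5a the difference was 1.85 for DUSP1, 2.09 for DUSP5, 1.30 for DUSP6, 1.03 for SPRY2 and 2.53 for SPRY4, and -0.43 for DUSP16 and -0.36 for SPRED1 (4.91e-11 to 0.0218). With Epinephrine it was 1.05 for DUSP1, 0.89 for DUSP4 and 0.90 for SPRY2, and -0.47 for DUSP5, -1.25 for DUSP6, -2.34 for DUSP10 and -1.60 for SPRY4 (8.71e-10 to 0.0137). The DUSP1, DUSP6 and SPRY2 values rest on EV-Control libraries that spread from 646.5 to 1474, 81.0 to 197 and 54.0 to 109.6 CPM.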

How the results depend on the processing

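Of 2290 recomputed fold changes of the 10 genes, 2203 kept their side of the threshold, 35 lost a call and 52 gained one, and no called value changed sign. Leaving out single libraries accounted for 24 of the losses and 20 of the gains. For EV-TNFα the number of members called was 2, and 4 with library totals alone, 5 with a mean count of at least 50, 5 with DESeq2 and 2 to 5 on leaving out single libraries. For EV-IL-1β the members called ranged from 2 to 4 on leaving out single libraries. For the Epinephrine interaction 7 members were called, and 4 when only the groups compared were fitted. In the other comparisons the count stayed within 1.5 times its value. With library totals alone, signs reversed for TNFα in DUSP14 (-0.239), for IL-1β against TNFα in FGF2 (0.043) and for the TNFα interaction in MAPK3 (0.25), counting genes called in either setting. Same-numbered libraries showed no shared deviation from their group means (correlation -0.0393 to 0.0286 over 33 pairs). That check cannot show whether they were paired by design, which the labels do not say. With replicate number as a block 4 members were called for EV-TNFα, and 5 of 150 values changed their call. DUSP8, at 64 to 231 counts, is the gene most limited by depth.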
